A study of Sus scrofa with 12 samples.

Results

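The respiratory complexes I, II, III and V of muscle mitochondria were followed through the genes for their subunits and for the factors named after them. Members were all probe sets whose gene symbol begins with NDUF, SDHA, SDHB, SDHC, SDHD, UQCR or ATP5. The rule took 74 probe sets and, keeping for each gene the probe set with the highest mean log2 signal, gave 57 genes of the 6765 that carried 1 symbol. Of these, 32 were subunits of complex I, 4 of complex II, 2 of complex III and 13 of complex V, and the other 6 were assembly or coupling factors and NDUFA4. The choice of a probe set per gene used the mean over all arrays and no comparison between ages. The members themselves were chosen with earlier results of these data known. A further 1 probe set was annotated with several genes and was left out.

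The samples were skeletal muscle of pigs (Sus scrofa) of 4 ages: day 0, less than 24 hours after birth, and days 7, 14 and 21, each with 3 biological replicates. No treatment or genotype is named in the labels, nor which muscle was taken, the breed, or whether the replicates are separate animals, so the p-values measure the spread between these samples. Total RNA was labelled with biotin and hybridised to Affymetrix porcine arrays, on which a set of short probes reads each transcript. The values are MAS5 signals, a linear brightness per probe set, and differences are given on the log2 scale.

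Mitochondria make ATP by passing electrons from NADH through complex I, or from succinate through complex II, to ubiquinone and on through complexes III and IV to oxygen. Complexes I, III and IV pump protons as they do so, and complex V, the ATP synthase, lets the protons flow back and makes ATP. Oxidative muscle fibres are rich in these complexes, and most of their subunits are coded in the nucleus.

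The day 0 arrays differed from the later ones in their added controls. For the poly-A RNAs spiked in before labelling, the log2 ratio of 3' to 5' signal lay between 0.37 and 0.67 on the 9 later arrays and between 0.66 and 1.59 on the day 0 arrays, with 1.59 on replicate 2. The log2 signal of the hybridization controls was 12.40 to 12.79 on the later arrays and 12.09 to 12.26 on the day 0 arrays. All 6 fibre markers with a probe set named here and all 7 slow fibre markers passed the filter on dim probe sets, as the label of skeletal muscle asks, and so did all the endothelial, macrophage and fibroblast markers on the array. The summed signal of the slow fibre markers ran from 136400 to 255000 on the later arrays and from 95870 to 154900 at day 0. Of the 7, 6 rose over the later ages, where 10.8% of all probe sets rose and 8.76% fell. Without day 0 replicate 3, 7 rose, and 3 did without replicate 1 or without replicate 2. With the poly-A ratio as a covariate, 1 rose. The sum over 7 endothelial markers ran from 5731 to 8927 later and from 4735 to 5745 at day 0. Among them 4 rose and 1 fell, also without day 0 replicate 3 or without replicate 1. Without replicate 2, 5 rose and 1 fell, and with the poly-A covariate 4 rose and 0 fell. The sum over 6 macrophage markers ran from 2745 to 5025 later and from 1516 to 2480 at day 0. Here 2 rose, also on leaving out any 1 of the day 0 arrays, and 0 with the poly-A covariate. The sum over 6 fibre markers ran from 226400 to 305400 later and from 174600 to 241400 at day 0. Of these 2 rose, 4 without day 0 replicate 3, and 0 without replicate 1, without replicate 2 or with the poly-A covariate. The macrophage sums did not overlap between the later arrays and day 0, while the fibre, slow fibre and endothelial sums did. Sums over fibroblast, adipocyte and erythroid markers overlapped as well, at 13650 to 36100 against 15330 to 30950, 2279 to 7053 against 2636 to 4253, and 999.4 to 1887 against 1452 to 2456. No summed list was at 0 on any array. The part of these shifts in the results below was not tested, and in a bulk extract fewer cells of a type and less RNA per cell cannot be told apart.

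Within day 0, replicate 3 stood apart in the respiratory genes. It was the highest of the day 0 arrays in 54 of 57 members (94.7%), against 33.6% of the 14399 probe sets tested, and the highest of all 12 arrays in 29 members (50.9%, against 9.68%). Its signals lay above the mean of the other day 0 arrays by a median of 0.52 over the members and of 0.02 over all probe sets. Replicate 3 thus lay above the mean of the later arrays, by a median of 0.27 over the members, while the mean of replicates 1 and 2 gave a median of -0.28. All 32 subunits of complex I, all 4 of complex II, both of complex III and 12 of 13 of complex V were highest in replicate 3 among the day 0 arrays. ATP5J, NDUFAF1 and SDHAF2 were the members that were not. Of other mitochondrial genes, citrate synthase and cytochrome c were looked up there. Citrate synthase (CS), an enzyme of the citric acid cycle, read 17653 in replicate 3 and 12688 and 13254 in replicates 1 and 2. Cytochrome c (CYCS), which carries electrons from complex III to complex IV, read 18220 in replicate 3 and 7307 and 6459 in the others, and up to 11682 on the later arrays. The summed slow fibre markers of replicate 3 were 154900, against 95870 and 109600, and its summed fibre markers 241400, against 174600 and 191000. What set that array apart was not tested, and the counts of calls that use day 0 are given with and without it. It was singled out by its high signals in these same genes. Leaving it out therefore had to raise most of their differences from day 0.

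**Figure D1:**
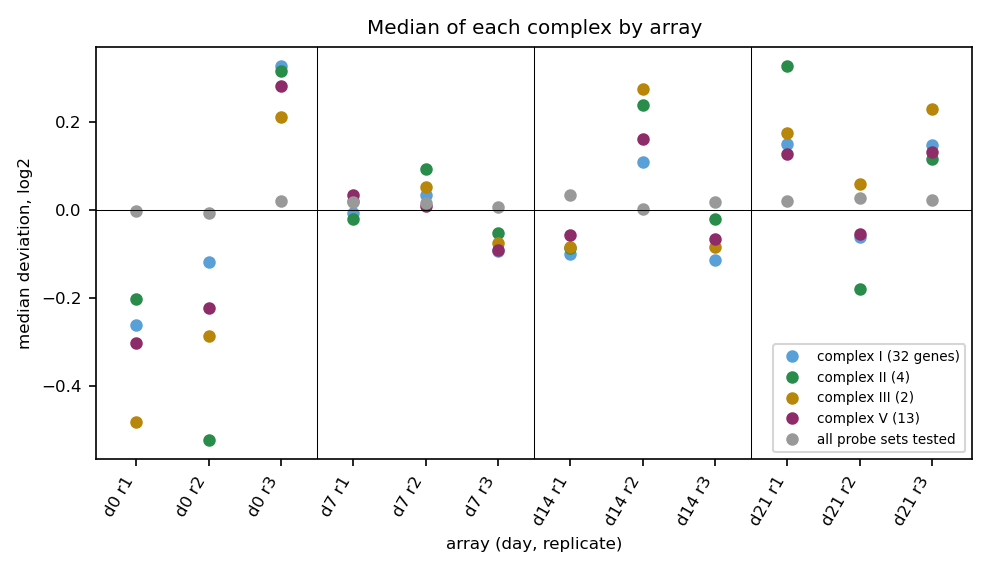
Median deviation of each complex's genes (log2 signal minus the gene's mean over 12 arrays) on each array, with the median of all probe sets; 3 arrays per day are shown side by side, 1 point per complex. At day 0 replicates 1 and 2 lie below 0, with medians over all members of -0.27 and -0.22, and replicate 3 lies above, at 0.29.

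At the later ages, too, most members had the same array at the top or the bottom, with smaller spread. At day 14 replicate 2 was the highest array in 47 of 57 members (82.5%, against 32.6% of all probe sets), and at day 21 replicate 2 was the lowest in 46 (80.7%, against 35.4%). At day 7 replicate 3 was the lowest in 40 members (70.2%, against 36.7%). The median SD between replicates over the members, on the log2 scale, was 0.32 at day 0, 0.10 at day 7, 0.15 at day 14 and 0.16 at day 21. Over all probe sets, which were not matched for brightness, it was 0.34, 0.22, 0.26 and 0.25.

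**Figure D2:**
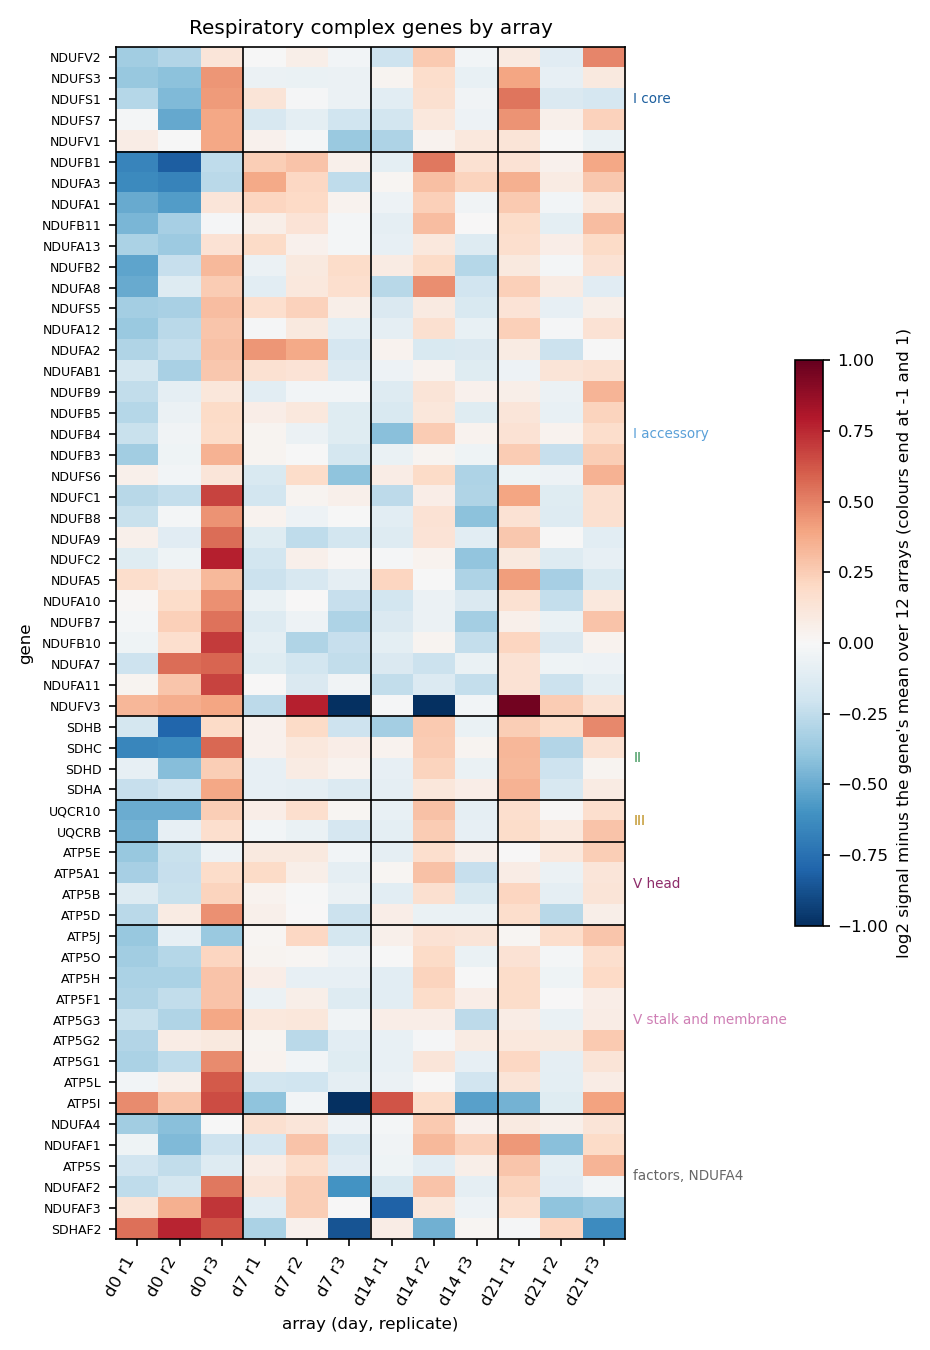
Log2 signal of the 57 genes (rows, by complex) on the 12 arrays (columns, by day and replicate), as the difference from each gene's own mean; colours end at -1 and 1. The column of day 0 replicate 3 is high across most genes, in contrast to the columns of day 0 replicates 1 and 2.

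The question the ages pose is whether these genes changed after birth, and the days 7, 14 and 21 together were first set against day 0. Most respiratory genes did not pass the test. With limma and Benjamini-Hochberg adjustment over all probe sets, 6 of 57 members (10.5%) passed an adjusted p of 0.05, against 19.6% of all probe sets tested, which was below the background here but not under every setting. NDUFB1, NDUFA3, NDUFA4 and ATP5J rose and NDUFA11 and SDHAF2 fell, where 10.8% of all probe sets rose and 8.76% fell. A further 10 members reached an unadjusted p of 0.05, making 16 in all. The difference was above 0 in 38 members (66.7%, against 50.7% of all probe sets), and its median was 0.10, against 0.01 over all probe sets.

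**Figure D3:**
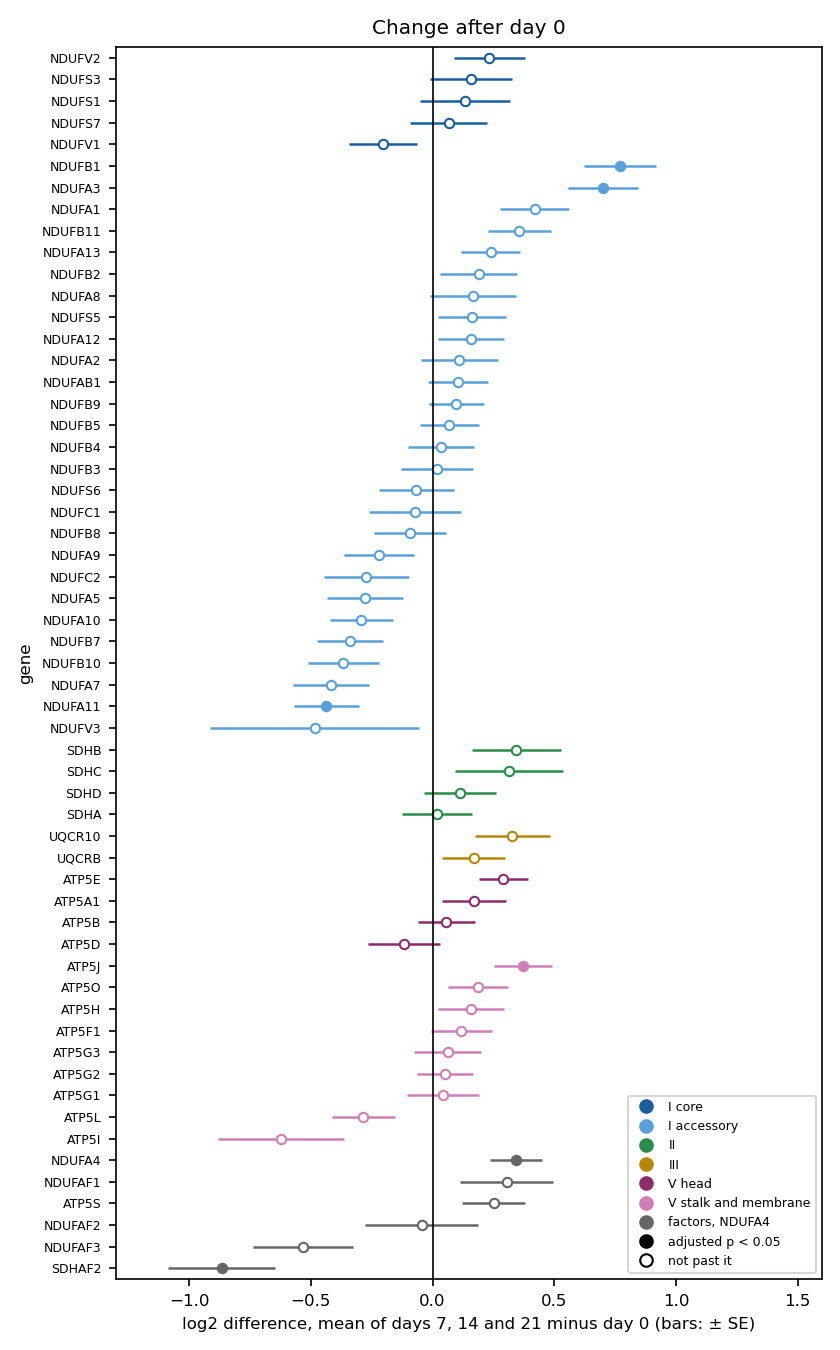
Log2 difference of the mean of days 7, 14 and 21 from day 0 for each of the 57 genes, with bars of ± SE from the fit (9 later arrays, 3 day 0 arrays); filled points passed an adjusted p of 0.05. The genes run from -0.87 (SDHAF2) to 0.77 (NDUFB1), with 6 filled points.

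Leaving out a day 0 array changed how many members passed and the size of their median, by an amount that depended on the array. Without replicate 3, 17 members passed (16 rose and 1 fell) and the median was 0.28. That was 29.8% of the members against 19.7% of all probe sets, so their share then lay above the background. Without replicate 1, 7 passed (2 rose and 5 fell; 12.3% against 15.4%) and the median was -0.00. Without replicate 2, 3 passed and all rose (5.26% against 12.6%), with a median of 0.01. Of the 6 members called on all arrays, 4 were also called without replicate 3. The counts also moved with the scaling. The 4 that rose and 2 that fell became 1 and 17 when the arrays were scaled on the hybridization controls. They became 2 and 8 with median centring (17.5% of the members, against 20.4% of all probe sets). With quantile normalization they were 4 and 4 (14% against 18.4%). The hybridization scale moved the median of all probe sets to -0.34 and that of the members to -0.25. This scale shifts every probe set of an array by the same amount. The 0.09 by which the members lay above all probe sets on the deposited scale therefore could not change. The 18 members called on it were 31.6%, against 29.4% of all probe sets. With the poly-A ratio as a covariate, 0 members passed, and the share of all probe sets that passed was 6.65%.

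Between day 21 and day 0, 2 of 57 members passed (3.51%), NDUFA3 and NDUFB1, which both rose, against 11.5% of all probe sets (6.61% rose and 4.90% fell). An unadjusted p of 0.05 was reached by 13. The day 21 arrays lay wholly above the day 0 arrays in 6 members (ATP5E, ATP5J, ATP5S, NDUFA3, NDUFA4 and NDUFB1) and wholly below in 1 (SDHAF2), 7 of 57, where 29.1% of all probe sets did not overlap. All 9 later arrays lay above the 3 of day 0 in NDUFA3, NDUFB1 and ATP5S and below them in SDHAF2, 4 of 57, against 14.6% of all probe sets (7.44% above and 7.15% below). Without day 0 replicate 3, 14 members passed between day 21 and day 0 (24.6%, against 14.1% of all probe sets), and all of them rose.

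Complex I takes electrons from NADH in an arm that reaches into the mitochondrial matrix and pumps protons in an arm that lies in the inner membrane. Of its core, the subunits shared with bacteria, 5 nuclear genes were measured. By the probe set used for each, 0 of 5 passed the limma test in any comparison on all arrays. Of all probe sets, 19.6% passed between the later ages and day 0, and 5 genes are too few to set against that share. NDUFV1, which holds the flavin that takes the electrons from NADH, read 3753, 3556 and 4679 at day 0, 3685, 3529 and 2762 at day 7, 2880, 3664 and 3833 at day 14, and 3899, 3567 and 3402 at day 21. The ages overlapped, and day 21 differed from day 0 by -0.13 ± 0.17 (SE, adjusted p = 0.658). NDUFV2, an iron-sulfur subunit beside it, read 8904, 9251 and 12357 at day 0, 11316, 11852 and 11177 at day 7, 9816, 13621 and 11177 at day 14, and 12072, 10501 and 15978 at day 21. Its day 0 replicates 1 and 2 lay below the later arrays while replicate 3 lay among them, and day 21 differed from day 0 by 0.33 ± 0.18 (adjusted p = 0.257). The other core genes differed after day 0 by 0.13 (NDUFS1, the largest iron-sulfur subunit), 0.16 (NDUFS3) and 0.07 (NDUFS7, which passes the electrons to ubiquinone), all with adjusted p of 0.554 or more. A second NDUFS3 probe set, nearly as bright as the one used, rose by 1.03 ± 0.20 (adjusted p = 0.00355).

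The accessory subunits surround that core, and 3 of the 27 measured passed in the comparison of the later ages with day 0 (11.1%, against 19.6% of all probe sets). NDUFB1 and NDUFA3, both small subunits of the membrane arm, had the largest rises of all members by the probe sets used. NDUFB1 read 8482, 7562 and 11233 at day 0, 15900, 16263 and 13854 at day 7, 12486, 19275 and 14876 at day 14, and 14788, 13751 and 17491 at day 21. Every later array lay above every day 0 array. The later ages were 1.71-fold the day 0 level (0.77 ± 0.15, SE, adjusted p = 0.00394), and day 7 and day 21 each lay 0.77 ± 0.18 above day 0 (adjusted p = 0.0223 and 0.0178). NDUFA3 read 5589, 5472 and 7218 at day 0, 11307, 10039 and 7303 at day 7, 8821, 10725 and 10125 at day 14, and 11141, 9193 and 10472 at day 21. Its groups did not overlap either, although day 7 replicate 3 lay close to day 0 replicate 3. The later ages lay 0.70 ± 0.14 above day 0 (adjusted p = 0.00513), day 7 by 0.64 ± 0.18 (0.0399) and day 21 by 0.76 ± 0.18 (0.0156). These were the members that passed the limma F test over all ages too, with an adjusted p of 0.0302 for NDUFB1 and 0.0373 for NDUFA3 (2 of 57, 3.51%, against 8.88% of all probe sets).

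Both genes stayed above day 0 under all 24 alternative settings. NDUFB1 lost its call in the comparison of the later ages with day 0 only with the poly-A ratio as a covariate (0.60 ± 0.20, adjusted p = 0.0898), and NDUFA3 there (0.56, 0.102) and on the hybridization scale (0.35, 0.0555). At day 21 and day 7 the calls were lost more often. Without day 0 replicate 2, or without day 21 replicate 3, neither gene passed, and without day 21 replicate 1 NDUFA3 did not, with adjusted p between 0.0512 and 0.077. The day 7 call of NDUFA3 was lost under 15 of 24 alternatives, among them leaving out any 1 of 7 arrays (adjusted p from 0.0514 to 0.154), and that of NDUFB1 under 8, among them leaving out any 1 of 4 arrays (0.0521 to 0.0829). Day 0 replicates 1 and 2 were among these arrays for both genes.

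NDUFA11, a membrane-arm subunit that lies where complex I meets complex III in supercomplexes, fell. It read 7285, 8629 and 11422 at day 0, 7151, 6460 and 6968 at day 7, 6011, 6476 and 6052 at day 14, and 7873, 6136 and 6656 at day 21. Day 0 replicate 3 was the highest array, and day 0 replicate 1 lay below the highest day 21 array, so the groups overlapped. The later ages were 0.739 times the day 0 level (-0.44 ± 0.13, adjusted p = 0.0365), and day 21 differed by -0.39 ± 0.16 (0.145). Without day 0 replicate 3 the later ages differed by -0.26 (adjusted p = 0.162), and leaving out any 1 of 9 of the 12 arrays ended the call.

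**Figure D4:**
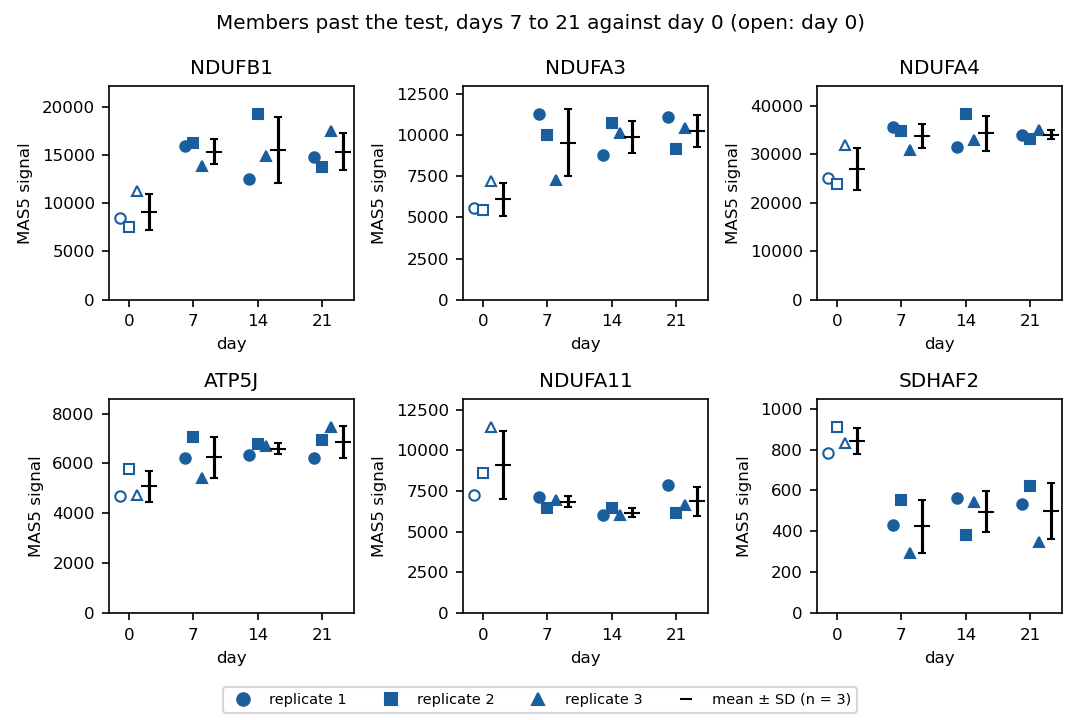
MAS5 signal on each array, by day, of the 6 genes past an adjusted p of 0.05 between the later ages and day 0, with the mean ± SD of 3 arrays (open points: day 0; each axis starts at 0 and has its own scale). NDUFB1, NDUFA3 and SDHAF2 show no overlap of days 7 to 21 with day 0; NDUFA4, NDUFA11 and ATP5J do.

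The other 24 accessory subunits lay between -0.48 and 0.42 and did not pass. NDUFA1, a small membrane-arm subunit, and NDUFB11, another of that arm, came nearest among the genes that were higher later, at 0.42 ± 0.14 (adjusted p = 0.0537) and 0.36 ± 0.13 (0.0704). At the other end stood NDUFA7, of the matrix arm, at -0.42 ± 0.16 (0.077), and NDUFB10 and NDUFB7, of the membrane arm, at -0.37 ± 0.15 (0.0933) and -0.34 ± 0.14 (0.0952). NDUFV3, which sits at the NADH-oxidising tip, had the lowest value of the 24 and by far the noisiest. Its signals were 210, 215 and 219 at day 0, 139, 285 and 46.9 at day 7, 166, 77.7 and 164 at day 14, and 325, 198 and 185 at day 21, and the later ages differed by -0.48 ± 0.43 (adjusted p = 0.463). Without day 0 replicate 3, 9 of 32 subunits of complex I rose over the later ages and 0 fell. Of all probe sets, 19.7% were then called in either direction and 8.47% fell. Among the 9 were NDUFA1 (0.64), NDUFB11 (0.48), NDUFB2 (0.42), NDUFA13 (0.40) and the core gene NDUFS3 (0.43). Without replicate 1, 2 of the 32 rose and 4 fell, where 15.4% of all probe sets were called. Without replicate 2, 2 rose and 0 fell, where 12.6% were called.

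NDUFA4 was first described in complex I and is now assigned to complex IV. It read 25161, 23986 and 31893 at day 0, 35738, 34789 and 30994 at day 7, 31559, 38388 and 33050 at day 14, and 34114, 33245 and 34963 at day 21. All day 21 arrays lay above day 0, while day 0 replicate 3 lay above 1 array each of days 7 and 14. The later ages were 1.27-fold the day 0 level (0.34 ± 0.11, adjusted p = 0.0379), and day 21 differed by 0.35 ± 0.13 (0.102). On the hybridization scale the difference turned to -0.0066 (adjusted p = 0.964), and leaving out any 1 of 9 arrays ended the call. The RefSeq table lists 2 pig genes of that name, which 1 probe set may not tell apart.

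The complex I assembly factors, which join the parts of the complex and are no part of the finished enzyme, were NDUFAF1, NDUFAF2 and NDUFAF3. Between the later ages and day 0, 0 of 3 passed, where 19.6% of all probe sets did. The later ages differed from day 0 by 0.30 ± 0.19 for NDUFAF1 (adjusted p = 0.289), by -0.04 ± 0.23 for NDUFAF2 (0.915) and by -0.53 ± 0.21 for NDUFAF3 (0.0858).

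Complex II oxidises succinate in the citric acid cycle and passes the electrons to ubiquinone without pumping protons. All 4 of its subunits were measured, all 4 lay above day 0 at day 21, and 0 passed the limma test on all arrays. Of all probe sets, 11.5% passed between day 21 and day 0 and 19.6% between the later ages and day 0. SDHA, the flavoprotein that binds succinate, read 8279, 8505 and 12695 at day 0, 9181, 9125 and 8841 at day 7, 9133, 10500 and 10187 at day 14, and 12372, 8726 and 10272 at day 21. Day 0 held both the lowest and the highest array, and day 21 differed from day 0 by 0.10 ± 0.17 (SE, adjusted p = 0.746). SDHB, the iron-sulfur subunit, read 14854, 9664 and 19098 at day 0, 17225, 19092 and 14500 at day 7, 13194, 20074 and 15950 at day 14, and 19812, 18971 and 23340 at day 21. Day 0 replicate 3 overlapped day 21, and the difference was 0.56 ± 0.22 (adjusted p = 0.124), the largest in the complex. The membrane anchors, which hold the ubiquinone site, differed at day 21 by 0.30 ± 0.27 for SDHC (0.522) and 0.13 ± 0.18 for SDHD (0.676). SDHC depended most on a single array: it read 2282, 2321 and 5325 at day 0 and between 2923 and 4500 on the later arrays, so that replicate 3 was above and the others below all of them. Without day 0 replicate 3, SDHC lay 0.72 ± 0.15 (adjusted p = 0.00695) and SDHB 0.57 ± 0.18 (0.0439) above day 0 at the later ages. On leaving out single arrays these differences ran from 0.11 to 0.72 for SDHC and from 0.08 to 0.57 for SDHB.

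SDHAF2, the factor that helps to insert the flavin into SDHA, fell. It read 784, 909 and 830 at day 0, 429, 551 and 294 at day 7, 564, 384 and 542 at day 14, and 532, 620 and 347 at day 21. Every later array lay below every day 0 array, and day 0 replicate 3 lay between the other day 0 arrays. The later ages were 0.549 times the day 0 level (-0.87 ± 0.22, adjusted p = 0.015). Day 7 lay 1.03 below day 0 (a difference of -1.03 ± 0.27, adjusted p = 0.0322) and day 21 differed by -0.79 ± 0.27 (0.0735). The fall after day 0 was called under 20 of 24 alternatives; without day 0 replicate 2 it was -0.81 (0.065), and with the mean of the gene's probe sets -0.61 (0.113).

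Complex III passes electrons from ubiquinol to cytochrome c, and only 2 of its subunits carried a symbol here. UQCR10, a small subunit, read 8575, 8582 and 14359 at day 0, 12653, 13598 and 12239 at day 7, 11498, 14819 and 11346 at day 14, and 13552, 12152 and 13590 at day 21. Day 0 replicates 1 and 2 lay below all 9 later arrays, and replicate 3 lay above 8 of them. Day 21 differed from day 0 by 0.36 ± 0.19 (adjusted p = 0.232), and without replicate 3 the later ages lay 0.58 ± 0.12 above day 0 (0.00604). On leaving out single arrays the difference of the later ages ran from 0.20 to 0.58. UQCRB, which lies beside a ubiquinone site, read 18662, 24500 and 29167 at day 0, 25405, 24708 and 23001 at day 7, 24191, 30878 and 24500 at day 14, and 29390, 27872 and 31590 at day 21. The ages overlapped, and day 21 differed from day 0 by 0.32 ± 0.16 (0.21).

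Complex V turns a ring of c subunits in the membrane by proton flow, and the turning drives the catalytic F1 head. None of the 4 measured head genes passed the limma test, and 1 of the 9 genes of the stalk and membrane part did. For the later ages against day 0, 19.6% of all probe sets passed. In the head, the later ages differed from day 0 by 0.17 ± 0.13 for ATP5A1 (alpha) and 0.06 ± 0.12 for ATP5B (beta), the pair that forms the catalytic ring. ATP5E (epsilon), of the central stalk, read 20771, 23159 and 26068 at day 0, 28935, 28898 and 26515 at day 7, 25445, 30430 and 27976 at day 14, and 27110, 29036 and 32091 at day 21. Day 21 lay wholly above day 0 by 0.34 ± 0.12 (adjusted p = 0.0952), which did not pass. The later ages together, which overlapped day 0, differed by 0.29 ± 0.10 (0.0588). ATP5D (delta), its neighbour in the stalk, read 7507, 9568 and 12455 at day 0, 9389, 9107 and 7806 at day 7, 9508, 8636 and 8655 at day 14, and 10240, 7479 and 9439 at day 21. It overlapped throughout, and day 21 differed from day 0 by -0.10 ± 0.18 (0.76).

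ATP5J, also called coupling factor F6 and part of the stalk that holds the head still, rose. It read 4714, 5787 and 4737 at day 0, 6226, 7076 and 5423 at day 7, 6337, 6766 and 6691 at day 14, and 6207, 6930 and 7448 at day 21. All day 14 and day 21 arrays lay above day 0, and 1 array of day 7 lay below day 0 replicate 2. The later ages were 1.29-fold the day 0 level (0.37 ± 0.12, adjusted p = 0.041), and day 21 differed by 0.44 ± 0.14 (0.0658). Leaving out any 1 of 9 arrays ended the call, with adjusted p from 0.0528 to 0.118, and on the hybridization scale the difference was 0.02 (0.909). The other genes of that stalk differed by 0.12 (ATP5F1, subunit b), 0.16 (ATP5H, subunit d) and 0.19 (ATP5O, the protein that ties stalk to head), with adjusted p of 0.308 or more. The 3 genes for the same mature c subunit lay near 0 at the later ages, ATP5G1 by 0.04 ± 0.15, ATP5G2 by 0.05 ± 0.12 and ATP5G3 by 0.06 ± 0.14.

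The small membrane subunits e and g, which help ATP synthase to form dimers, averaged below day 0 at the later ages without passing the test. ATP5I (e) read 3409, 2970 and 3855 at day 0, 1860, 2411 and 1179 at day 7, 3796, 2782 and 1682 at day 14, and 1765, 2252 and 3245 at day 21. All day 7 arrays lay below day 0, while days 14 and 21 overlapped it. Its differences were -0.96 ± 0.32 at day 7 (adjusted p = 0.0753), -0.53 ± 0.32 at day 21 (0.3) and -0.62 ± 0.26 over the later ages (0.107). ATP5L (g) differed by -0.28 ± 0.13 over the later ages (0.138). ATP5S, coupling factor B, lay above day 0 on every later array by a mean of 0.25 ± 0.13 (0.192). Without day 0 replicate 3, ATP5E (0.37), ATP5H (0.36) and ATP5O (0.36) rose over the later ages, and ATP5J (0.32, adjusted p = 0.107) did not pass. The 3 rises were among 13 genes of complex V, of which 0 fell. Of all probe sets, 19.7% were then called in either direction and 8.47% fell. Without replicate 1, 0 of the 13 were called, against 15.4% of all probe sets. Without replicate 2, 1 of them rose and 0 fell, where 12.6% of all probe sets were called.

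The complexes were set side by side by their medians, as a description without a test, since genes of a complex are not replicates. The median difference of day 21 from day 0 was 0.14 in complex I (22 of 32 above 0), 0.22 in complex II (4 of 4), 0.34 in complex III (2 of 2) and 0.17 in complex V (10 of 13), against 0.02 over all probe sets. Within complex I it was 0.25 over the 5 core genes and 0.10 over the 27 accessory genes. The SD between replicates of these medians was 0.18 in complex I, 0.26 in complex II, 0.21 in complex III and 0.18 in complex V, which includes shifts that all 4 shared on an array, as on day 0 replicate 3. Single members ranged from -0.39 to 0.77 in complex I, 0.10 to 0.56 in complex II, 0.32 to 0.36 in complex III and -0.53 to 0.44 in complex V. Within each array, the median deviation of complex III minus that of complex I was -0.22, -0.17 and -0.12 at day 0, 0.03, 0.02 and 0.02 at day 7, 0.02, 0.17 and 0.03 at day 14, and 0.02, 0.12 and 0.08 at day 21. It was below 0 on all day 0 arrays and above 0 on all later ones, and it rests on the 2 genes UQCR10 and UQCRB. For complex II minus complex I the ages overlapped, and for complex V minus complex I the values lay between -0.10 and 0.05 on all arrays. These gaps were looked at after the medians were known.

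The medians themselves depended on the day 0 arrays and on the scale. Without replicate 3 those of day 21 minus day 0 were 0.28, 0.50, 0.54 and 0.33, in the order I, II, III, V. Without replicate 1 they were 0.03, 0.11, 0.19 and 0.07, and without replicate 2 they were 0.06, 0.0579, 0.29 and 0.09. On the hybridization scale, which moved the median of all probe sets to -0.36, they were -0.24, -0.16, -0.0401 and -0.21. The members together lay 0.13 above all probe sets on the deposited scale. The hybridization scale shifts every probe set of an array alike, so it could not change that gap.

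The weekly steps share arrays with each other and with the comparisons above. In the first week 3 of 57 members passed (5.26%, against 9.40% of all probe sets, 5.76% rising and 3.64% falling), NDUFA3 and NDUFB1 rising and SDHAF2 falling, and 12 reached an unadjusted p of 0.05. Under the 24 alternatives the call of NDUFA3 was lost 15 times, that of NDUFB1 8 times and that of SDHAF2 8 times. When day 0 replicate 3 was left out, 8 members passed (14% against 11.6% of all probe sets; 7 rose and 1 fell). Without replicate 1, 2 passed (3.51% against 6.99%), and without replicate 2, 0 passed (0% against 5.08%). The median over the members was 0.04, with -0.00 in complex I, 0.18 in complex II, 0.18 in complex III and 0.04 in complex V, and without day 0 replicate 3 these were 0.23 over the members and 0.17, 0.38, 0.38 and 0.24 by complex. Between day 14 and day 7, 0 of 57 passed the limma test (0.00694% of all probe sets did) and 0 reached an unadjusted p of 0.05, with 32 members above 0 and a median of 0.02. Between day 21 and day 14, 0 of 57 passed (0% of all probe sets) and 0 reached an unadjusted p of 0.05. In that week 51 members lay above 0 (89.5%, against 51.3% of all probe sets), with a median of 0.09 and with 31 of 32 genes of complex I and 12 of 13 of complex V above 0. These genes are read on the same 3 arrays per age, on which most members stand in the same order, so the 51 are not 51 separate observations. The count fell to 39 without day 21 replicate 1 and to 45 without day 21 replicate 3. It was 44 without day 14 replicate 1 and 42 without day 14 replicate 3. Leaving out replicate 2 raised it, to 53 for day 14 and 55 for day 21.

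Of the 57 genes, 14 had more than 1 probe set, and none had probe sets called in opposite directions. NDUFS3 was the main case of disagreement: the probe set used gave 0.16 ± 0.17 over the later ages, and a dimmer one, with a mean signal of 5758, gave 1.03 ± 0.20 (adjusted p = 0.00355). A dimmer probe set of NDUFAF1 rose by 0.88 ± 0.22 (0.0144), where the one used gave 0.30 ± 0.19. Dimmer probe sets of SDHB and NDUFA1 gave -0.47 ± 0.24 (0.192) and -0.65 ± 0.35 (0.214), opposite in sign to the 0.34 and 0.42 of the ones used. For ATP5J the mean over its probe sets gave 0.76 ± 0.33 (0.13). Its other probe set was near the floor, with a mean signal of 23.57, and had not passed the filter.

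Genes of the same pathway outside the rule were looked up from lists chosen by function. In complex IV, which reduces oxygen, 6 of 14 listed genes carried a named probe set, and COX7A1, the isoform of heart and skeletal muscle, rose by 0.85 ± 0.15 over the later ages (adjusted p = 0.00192). COX6C rose by 0.45 ± 0.11 (0.0123), and COX6A1, the isoform of most other tissues, fell by 0.57 on the log2 scale (-0.57 ± 0.13, 0.01). The median of the 6 was 0.21. Of all probe sets, 10.8% rose and 8.76% fell. On leaving out day 0 replicate 3 these 3 calls held (1.04 ± 0.14, 0.58 ± 0.11 and -0.56 ± 0.16), and COX5B (0.32 ± 0.10, 0.047) and COX7C (0.35 ± 0.11, 0.0478) rose too. Without replicate 1, 1 of the 6 rose and 2 fell, and without replicate 2, 1 rose and 1 fell. On the hybridization scale 1 rose and 2 fell, and with the poly-A covariate 0 passed. Cytochrome c (CYCS) differed by -0.51 ± 0.34 (0.308; -0.04 ± 0.32 without day 0 replicate 3) and citrate synthase (CS), often used as a measure of mitochondrial mass, by 0.11 ± 0.12 (0.563; 0.26 ± 0.11 without it).

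The lists for building and serving the complexes held falls and 0 rises on all arrays. Among 8 further assembly factors 2 fell, BCS1L, which completes complex III (-0.72 ± 0.20, 0.0251), and FOXRED1, which acts on complex I (-0.74 ± 0.22, 0.0288), and the median was -0.03. Of 4 genes of ubiquinone synthesis 3 fell, PDSS1 (-0.85 ± 0.18, 0.0065), which makes the side chain, and COQ5 (-0.66, 0.0362) and COQ6 (-0.50, 0.0457), which modify the ring, with a median of -0.58. Of 7 carriers, VDAC2, a channel of the outer membrane, fell (-0.41 ± 0.13, 0.0376), and of 7 regulators of mitochondrial genes PPRC1, a coactivator, fell (-0.83 ± 0.20, 0.0132). The medians of these lists were -0.05 and -0.33. Over these 4 lists 7 of 26 genes fell (26.9%), against 8.76% of all probe sets. The 4 lists were pooled after the data were seen, without complex IV, in which 2 rose and 1 fell, so this share is only a description. With day 0 replicate 3 left out, 3 fell (11.5% against 8.47%) and 2 rose (COQ9 and VDAC1). TFAM (-0.59 ± 0.15, 0.0136), a factor of mitochondrial DNA, was then among the falls, and PDSS1 (-0.80 ± 0.22, 0.022) and PPRC1 (-0.88 ± 0.25, 0.0253) were still called, while BCS1L, FOXRED1, COQ5, COQ6 and VDAC2 were not, with adjusted p from 0.0558 to 0.168. Without replicate 1, 3 fell (11.5% against 6.54%), and without replicate 2, 5 fell (19.2% against 5.15%). These settings were added for the lists after the data were seen.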

How the data were processed

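Values are from 12 Affymetrix arrays, 3 per age. The deposited intensity values are MAS5 signals on a linear scale, per the submitters' processing notes; the version and settings are not given in the sources used here. The 2% trimmed mean was 500.1 on every array, and the median signal 145.4 to 171.7. No depth applies to arrays; their number limits the precision. Signals were taken as log2 without further normalization. Of 24123 probe sets, 124 controls and the 40% with the lowest mean log2 signal (under 90.3) were left out; all 57 members passed.

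One mean per age was fitted to 14399 probe sets with limma 3.58.1 (R 4.3.3; lmFit, eBayes with trend), with an F test and 5 contrasts, Benjamini-Hochberg adjusted per comparison at 0.05. The script was tested on simulated data. Figures used matplotlib 3.10.9. Gene names come from the platform annotation, and the Entrez IDs of all 57 members matched RefSeq with 0 symbols changed; NDUFA4 has 2 entries. Members and lists were chosen with earlier results of these data known. Named with all values were members called in any comparison and, per complex part, those with the highest and lowest difference of day 21 from day 0; SDHA to SDHD, NDUFA4 and the c subunit genes were always named, and others by range, by change or where they were the next nearest to a threshold. Alternatives were other filters, scalings, an offset of 29.7, no trend, array weights, the poly-A ratio as covariate, a replicate block, averaging all probe sets of a gene, fits of the compared arrays alone, and leaving out arrays 1 at a time. Settings for the lists outside the rule, and the pooling of 4 of these lists, were added after seeing the data.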

Additional observations from a re-analysis of the deposited data

How the results depend on the processing

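The number of members called moved with the settings. For the later ages against day 0 (6 called) it was 0 with the poly-A covariate, 3 without a filter, without the variance trend, with array weights or with the replicate block, 10 with median centring and 18 on the hybridization scale, and 3 to 17 on leaving out single arrays. For day 21 against day 0 (2) it was 0 with the poly-A covariate or only the arrays compared, 9 on the hybridization scale and 0 to 14 on leaving out single arrays. For day 7 against day 0 (3) it was 0 with the poly-A covariate or only the arrays compared, 1 with array weights or no trend, 5 with quantile normalization, 10 on the hybridization scale and 0 to 8 on leaving out single arrays. For any age (2) it was 0 with array weights, no filter, no trend, the poly-A covariate or the replicate block, 1 with median centring, 9 on the hybridization scale and 0 to 6 on leaving out single arrays. The steps from day 7 to 14 and from day 14 to 21 gave 0 to 0. The share of all probe sets called moved as well. For the later ages (19.6%) it was 6.65% with the poly-A covariate, 10.1% without a filter and 29.4% on the hybridization scale. For any age (8.88%) these were 1.49%, 4.31% and 14.6%. For day 21 (11.5%) it was 6.58% with the poly-A covariate, 4.1% with only the arrays compared and 20% on the hybridization scale. For day 7 (9.40%) these were 1.54%, 3.31% and 13.8%. The median differences of day 21 from day 0 were -0.24 (I), -0.16 (II), -0.0401 (III) and -0.21 (V) on the hybridization scale, and ran on leaving out single arrays from 0.03 to 0.28 (I), 0.0579 to 0.50 (II), 0.19 to 0.54 (III) and 0.07 to 0.33 (V). In the same order the medians were 0.02, 0.04, 0.29 and 0.07 with the poly-A covariate, 0.03, 0.18, 0.21 and 0.02 with quantile normalization, and 0.04, 0.11, 0.23 and 0.07 with median centring. NDUFA4 reversed to -0.0066 on the hybridization scale. The cause of these changes was not tested. The labels do not say whether replicate numbers pair the samples across ages. Of 18 same-numbered pairs of arrays, with correlations from -0.20 to 0.11, 2 were over 0.1, and 2 of 12 arrays correlated best with their own number. Such correlations cannot exclude a pairing, so the replicate block is kept as an alternative only. With 3 arrays at day 0, and a single one of them moving most members, differences of the size seen in most members could not be told from the spread.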
